A study of Mus musculus with 12 samples.

Results

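The levels of 9 genes used as macrophage markers, *Cd68*, *Csf1r*, *Cx3cr1*, *C1qa*, *C1qb*, *C1qc*, *Mrc1*, *Laptm5* and *Tyrobp*, were examined in RNA-Seq libraries of mouse forelimb zeugopod, the segment that holds the radius and ulna. They were chosen by gene symbol, and each was found once among the 36186 gene rows. All embryos were E15.5 on a mixed 129/CD-1 background. WT resting, WT proliferative and WT hypertrophic chondrocytes and the undifferentiated chondrocytes of *aadd* embryos were collected by laser capture microdissection, with 3 libraries in each of the 4 groups. The *aadd* embryos are homozygous for small frameshift mutations in the first exons of *Hoxa9*, *Hoxa10*, *Hoxa11*, *Hoxd9*, *Hoxd10* and *Hoxd11* in every cell, and the WT embryos carry none of them. In the labels the hypertrophic group is called hyperproliferative and the *aadd* group resting, and the names of the study are used here. Cells of the surrounding perichondrium could be captured along with the chondrocytes. The sets of samples are called independent in the study, but the labels do not say whether libraries of a group came from separate embryos, so *P* values measure the spread between these libraries, which may be technical.

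Macrophages are tissue phagocytes of the myeloid lineage, and in the fetal limb they clear dying cells. CSF1R, the receptor tyrosine kinase for the growth factors CSF1 and IL-34, keeps them alive, and TYROBP (also called DAP12) is an adaptor that passes on signals from TREM2 and other surface receptors. Osteoclasts, the multinucleated cells that resorb mineralized cartilage and bone at the edge of the hypertrophic zone, arise from the same myeloid precursors. They also use CSF1R and TYROBP, and they also carry CD68, a glycoprotein of the lysosomal membrane, and LAPTM5, a lysosomal membrane protein of blood cells. The mannose receptor MRC1, the fractalkine receptor CX3CR1 and the 3 chains of the complement protein C1q are more characteristic of macrophages that reside in tissues. Chondrocytes are not a known source of most of these transcripts.

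The stretches around the GGAAGT core that ETS family factors such as PU.1 recognize are shown for the members that held it, since PU.1 is the main regulator of the myeloid lineage and several members were high in the same libraries. RefSeq start regions (GRCm38.p6, 250 bases before to 50 after the start) were at hand for 6 members, *Cd68*, *Cx3cr1*, *C1qb*, *C1qc*, *Mrc1* and *Laptm5*. GGAAGT or its reverse complement ACTTCC was present in 5 of the 6 and in 23.8% of all 32851 such regions. The motif was chosen after the sequences had been seen, so these shares are a description. *Csf1r* and *Tyrobp*, which were high in the same libraries, had no region at hand. *Mrc1*, *C1qb* and *C1qc* were not among the high members. Each line below gives the gene's own strand, with the motif in capitals.
*Mrc1*, chr2:14229191-14229220, plus strand, motif at -211: tcacttctccccACTTCCtgcgttttctcc
*Laptm5*, chr4:130913241-130913270, plus strand, motif at -63: tgagggcaaggcGGAAGTgaggcaggcagc
*C1qb*, chr4:136886236-136886265, minus strand, motif at -53: acaggacctgaaACTTCCtgagggcagcag
*C1qc*, chr4:136893092-136893121, minus strand, motif at -195: gggacggcagacACTTCCtcattttggcac
*Cd68*, chr11:69666142-69666171, minus strand, motif at 11: attttagttaagGGAAGTgaggcttttcat
Positions are counted from the RefSeq start of each region, which can differ from the gene spans given below. For *Cd68* this start lies upstream of that span, so the stretch with the motif at 11 is outside it. *Mrc1* and the neighbours *C1qb* and *C1qc* carry the reverse complement, and *Laptm5* and *Cd68* carry GGAAGT itself. *Cx3cr1* had no such match in its region. The AP-1 type motif TGANTCA, searched on both strands, was found in 7.81% of all regions and, of the 6 members, in *Cd68* alone, where it occurs at 2 places, as follows.
*Cd68*, chr11:69666301-69666331, minus strand, motif at -149: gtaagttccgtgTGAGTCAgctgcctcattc
*Cd68*, chr11:69666176-69666206, minus strand, motif at -24: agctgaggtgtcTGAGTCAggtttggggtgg
GGAAGT and TGANTCA do not overlap each other in these stretches. The matches are descriptions of sequence, and binding was not measured.

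Expression is given as NRPKM, reads per kilobase of transcript at a common depth, normalized between libraries, which is comparable between genes because it is per length. The depth implied by the values was 1890000 to 3240000 reads per library, at which 1 read on a transcript of 1 kb was worth 0.309 to 0.530 NRPKM. Reads behind a value were estimated from it and from the exon length, and a limit of 3 reads covers counting error only. As a background, 1624 single-exon receptor and keratin-associated genes that limb cells should not use had a 99th percentile of 0.779 to 4.97 NRPKM per library. The mutated Hox genes lay between 4.34 and 30.5 NRPKM in WT resting and between 5.17 and 52.1 NRPKM in *aadd*, and since frameshifts need not remove a transcript these levels do not test the genotype. Libraries 2 and 3 of the WT hypertrophic group stood apart from the other 10 in many genes: in 16.4% of the 10936 genes that passed a filter (5 NRPKM or more in 3 or more libraries) they were both above all the others, and in 14.8% both below. The values of the 3 hypertrophic libraries are therefore given one by one for the members, and the counts of members called are given with and without replicate 1. Replicate 1 was set apart with its values known, so *P* values without it are a description.

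The members fell into genes that were many times higher in hypertrophic replicates 2 and 3 and genes that did not exceed 10.6 NRPKM in any library. *Csf1r*, *Tyrobp*, *Cd68* and *Laptm5* were above all other libraries in those 2, and *Cx3cr1*, *Mrc1*, *C1qa*, *C1qb* and *C1qc* were not. That is 4 of 9 members, against 16.4% of genes passing the filter, which only 3 of the members did, and 11.6% of the 23070 rows with a value. *C1qa* had at most 1.0 read in any library, and only *Cd68* and *Laptm5* exceeded the 99th percentile of the background genes in 12 of 12 libraries. *Cx3cr1* exceeded it in 9 libraries, *Tyrobp* in 7, *C1qb* and *C1qc* in 4 each, *Mrc1* in 3, *Csf1r* in 2 and *C1qa* in 0. The genes are referred to by name and not as a macrophage population.

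**Figure D1:**
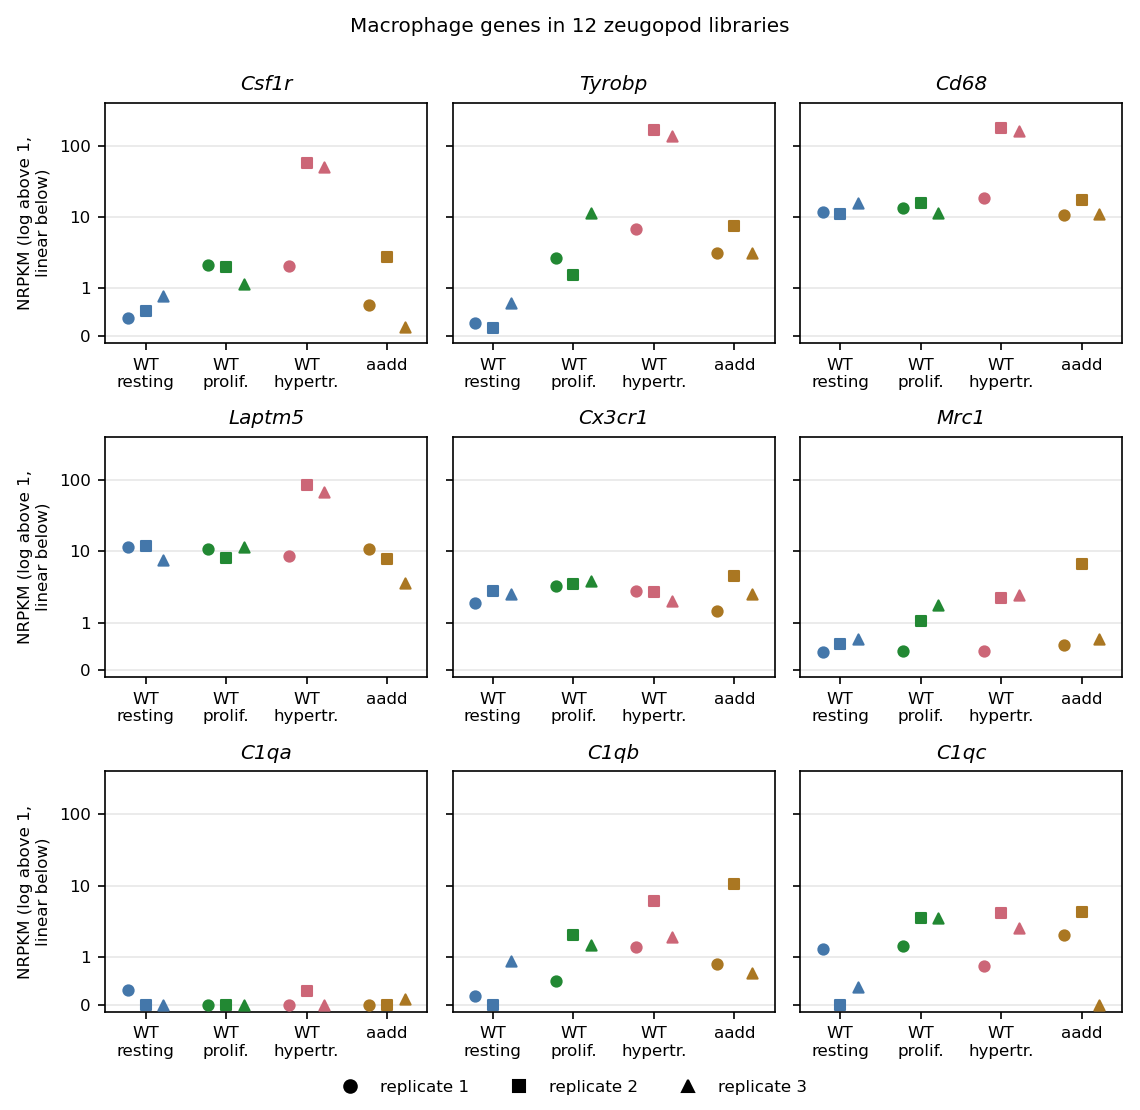
NRPKM of the 9 macrophage genes in each of the 12 libraries, on an axis that is logarithmic above 1 and linear below, with a colour for each group and a symbol for each replicate. *Csf1r*, *Tyrobp*, *Cd68* and *Laptm5* reach 49.6 to 174.2 NRPKM in hypertrophic replicates 2 and 3, whereas *C1qa* stays at or near 0 throughout.

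*Csf1r*, the receptor for CSF1, was at 0.37, 0.52 and 0.84 NRPKM in WT resting, which is 4.2 to 8.3 reads. It was at 2.13, 1.99 and 1.15 NRPKM in WT proliferative, and at 0.64, 2.71 and 0.19 NRPKM in *aadd*. In WT hypertrophic it was at 2.08 NRPKM in replicate 1 but at 56.7 and 49.6 NRPKM in replicates 2 and 3, where 710.5 and 571.6 reads stood behind the values. Replicate 1 of the hypertrophic group thus lay among the proliferative libraries, and the mean of the other 2 was 25.6-fold above it. The gene reached 5 NRPKM in only 2 libraries and so entered only the fits without a filter. There its log2 fold change in WT hypertrophic against WT proliferative was 3.35 (SE 1.40, adjusted *P* = 0.41), and without replicate 1 it was 4.89 (SE 0.32, adjusted *P* = 0.020).

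*Tyrobp*, the adaptor gene (chr7:30413788-30417579, build mm10), showed the widest range of the members. It was at 0.26, 0.16 and 0.69 NRPKM in WT resting, an estimated 0.4, 0.2 and 1.0 reads. Estimates under 1 read for values above 0 mean that the read scale is inexact for *Tyrobp*, and the bounds below depend on it. WT proliferative gave 2.70, 1.51 and 11.5 NRPKM, and *aadd* gave 3.10, 7.44 and 3.09 NRPKM, so that both groups lay wholly above WT resting. The proliferative values rest on an estimated 4.0, 1.6 and 12.3 reads, so replicate 2 was itself under 3 reads. Proliferative replicates 1 and 2 were also below the 99th percentile of the background genes there, 2.76 and 4.97 NRPKM. WT hypertrophic replicate 1 was at 6.81 NRPKM, within the proliferative range, and replicates 2 and 3 were at 164.0 and 135.7 NRPKM. Because WT resting was under 3 reads throughout, its folds are lower bounds against 3 reads: the mean was at least 2.58-fold higher in the proliferative group, at least 50.3-fold higher in WT hypertrophic (at least 73.8-fold in replicates 2 and 3 alone) and at least 2.23-fold higher in *aadd*. Without proliferative replicate 3 the first of these fell to at least 1.04-fold, and without *aadd* replicate 2 the last fell to at least 1.52-fold. The limit of 3 reads is set on WT resting alone, so these bounds leave out counting error in the higher group. The fitted log2 fold changes of *Tyrobp* against WT resting given below depend on the pseudocount and are not bounds.

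*Cd68* (chr11:69664371-69666062) was expressed at a low and even level outside the 2 hypertrophic libraries. WT resting libraries had 11.7, 10.9 and 15.9 NRPKM, WT proliferative libraries 13.5, 15.9 and 11.4 NRPKM, and *aadd* libraries 10.6, 17.3 and 10.9 NRPKM. The group means were 12.8 ± 2.67 (SD, n = 3), 13.6 ± 2.28 (SD, n = 3) and 12.96 ± 3.77 (SD, n = 3) NRPKM. These 3 groups overlapped fully. WT hypertrophic replicate 1 was slightly above them, at 18.2 NRPKM, and replicates 2 and 3 were at 174.2 and 160.4 NRPKM, 9.18-fold the highest of the other 10 libraries on average.

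*Laptm5* (chr4:130913334-130936148) followed the same pattern from a similar floor. It was at 11.4, 11.99 and 7.45 NRPKM in WT resting, at 10.9, 8.16 and 11.5 NRPKM in WT proliferative and at 10.8, 7.73 and 3.64 NRPKM in *aadd*. WT hypertrophic replicate 1, at 8.47 NRPKM, was inside those ranges. Replicates 2 and 3 were at 85.4 and 67.7 NRPKM. The ratio of replicate 2 to replicate 3 was alike in the 4 high genes, 1.09 for *Cd68*, 1.14 for *Csf1r*, 1.21 for *Tyrobp* and 1.26 for *Laptm5*.

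*Cx3cr1*, the fractalkine receptor gene (chr9:120048693-120068282), changed little. It was at 1.91, 2.79 and 2.52 NRPKM in WT resting, at 3.28, 3.505 and 3.83 NRPKM in WT proliferative and at 2.76, 2.65 and 1.98 NRPKM in WT hypertrophic. All 3 hypertrophic libraries were therefore below all proliferative libraries for *Cx3cr1*, replicate 1 as well as the 2 in which *Csf1r* was high. *aadd* gave 1.44, 4.51 and 2.53 NRPKM, the lowest and the highest of the 12 values. The reads behind these values numbered 15.1 to 37.2.

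*Mrc1*, the mannose receptor gene (chr2:14229414-14332023), was low with a different set of high libraries. It was at 0.38, 0.55 and 0.66 NRPKM in WT resting and at 0.41, 1.05 and 1.75 NRPKM in WT proliferative. WT hypertrophic gave 0.40 NRPKM in replicate 1 and 2.21 and 2.45 NRPKM in replicates 2 and 3. The highest value was in *aadd* replicate 2, at 6.71 NRPKM with 79.3 reads, whereas *aadd* replicates 1 and 3 were at 0.54 and 0.66 NRPKM.

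The C1q chains (chr4:136895916-136898844 for *C1qa*, chr4:136880145-136886177 for *C1qb* and chr4:136889802-136892914 for *C1qc*) form 1 protein, yet their levels were not alike. *C1qa* was listed at 0 in 9 libraries, and it was at 0.31 NRPKM in WT resting replicate 1, 0.29 NRPKM in WT hypertrophic replicate 2 and 0.11 NRPKM in *aadd* replicate 3. *C1qb* was at 0.17, 0 and 0.92 NRPKM in WT resting and at 0.49, 2.04 and 1.496 NRPKM in WT proliferative. It was at 1.40, 6.10 and 1.90 NRPKM in WT hypertrophic and at 0.85, 10.6 and 0.66 NRPKM in *aadd*. *C1qc* was at 1.28, 0 and 0.37 NRPKM in WT resting, at 1.45, 3.47 and 3.52 NRPKM in WT proliferative, at 0.81, 4.10 and 2.55 NRPKM in WT hypertrophic and at 2.04, 4.31 and 0 NRPKM in *aadd*. *C1qb* was highest in *aadd* replicate 2, with 25.4 reads. *C1qc* was close in *aadd* replicate 2 and hypertrophic replicate 2, at 4.31 NRPKM with 11.4 reads and at 4.10 NRPKM with about 16 reads. In WT resting *C1qb* was by estimate under 3 reads in all libraries, and the mean in WT hypertrophic was at least 2.98-fold higher. Without hypertrophic replicate 2 this bound fell to 1.57-fold, and without replicate 1 it was 3.80-fold.

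The 4 members that osteoclasts also use are the same 4 that were high in hypertrophic replicates 2 and 3, and since the grouping was made with earlier results known, the sums are a description. The summed NRPKM of *Csf1r*, *Tyrobp*, *Cd68* and *Laptm5* was 17.8 to 35.6 in the other 10 libraries (median 26.4) and 480.3 and 413.4 in hypertrophic replicates 2 and 3. The summed NRPKM of the other 5 members was 3.34 to 26.1 in the other 10 libraries (median 5.12) and 15.4 and 8.88 in those 2, both above the median. The 5 genes thus made up 12.4 to 42.6% of the summed level in the other 10 libraries and 3.10 and 2.10% in hypertrophic replicates 2 and 3. The highest sum of the 5 was in *aadd* replicate 2.

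**Figure D2:**
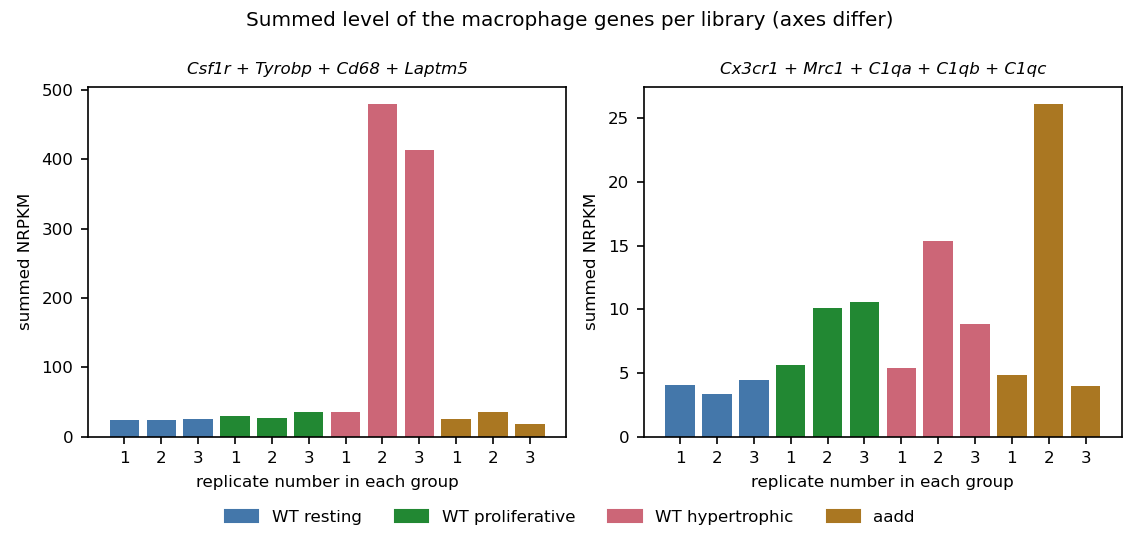
Summed NRPKM per library, as bars from 0, of the 4 members that osteoclasts also use (left) and of the other 5 members (right), on separate linear axes and coloured by group. Hypertrophic replicates 2 and 3 reach 480.3 and 413.4 on the left, while *aadd* replicate 2 is the highest on the right at 26.1.

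Whether the members differed between the WT hypertrophic and WT proliferative compartments depended on replicate 1. The filter passed 3 members, *Cd68*, *Laptm5* and *Tyrobp*. With all 6 libraries, *Cd68* rose by a log2 fold change of 2.56 (SE 0.87, unadjusted *P* = 0.025, adjusted *P* = 0.21) and *Tyrobp* by 3.84 (SE 1.37, unadjusted *P* = 0.030, adjusted *P* = 0.22). *Laptm5* had a log2 fold change of 1.85 (SE 0.87, unadjusted *P* = 0.075, adjusted *P* = 0.30) and did not pass. By the criteria of the study, an unadjusted *P* up to 0.05 and a fold change of at least 2, 2 members rose, where 5.32% of all genes did. After adjustment 0 members passed, and 0 of all 10936 genes did in this comparison with limma, against 2115 at an unadjusted *P* up to 0.05.

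Without hypertrophic replicate 1, all 3 members that passed the filter rose in WT hypertrophic over WT proliferative after adjustment. The log2 fold changes were 3.62 for *Cd68* (adjusted *P* = 0.0030), 2.90 for *Laptm5* (adjusted *P* = 0.0051) and 5.32 for *Tyrobp* (adjusted *P* = 0.018), with 8.74% of all genes rising past the limit. They come from setting aside the hypertrophic library already seen to be lower for these genes, and so are a description. Leaving out either of the other hypertrophic libraries, or proliferative replicate 1 or 2, instead brought the number past the unadjusted criteria from 2 to 0, and leaving out proliferative replicate 3 brought it to 1. Over all 9 members and without a filter, the median log2 fold change was 1.07 with all 6 libraries, where it was -0.02 over all 23070 rows with a value. *Cx3cr1* had the opposite sign, with -0.52 (SE 0.18, adjusted *P* = 0.36), as did *C1qc*, with -0.33 (SE 0.70, adjusted *P* = 0.86). With all 6 libraries the groups did not overlap for *Cd68*, higher in WT hypertrophic, as was the case for 9.25% of rows. Nor did they for *Cx3cr1*, lower in WT hypertrophic, as was the case for 8.33% of rows.

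**Figure D3:**
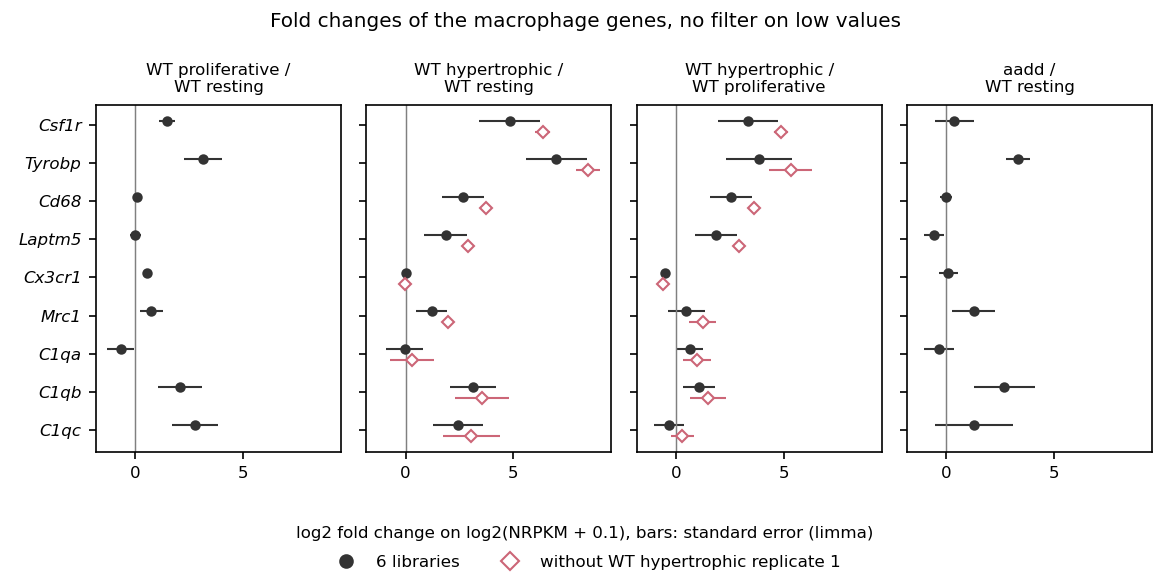
Log2 fold changes of the 9 members in the 4 comparisons, on log2(NRPKM + 0.1) with no filter on low values, with bars for the standard error from limma. Black circles use 6 libraries, and open diamonds leave out WT hypertrophic replicate 1, which moves *Csf1r* in WT hypertrophic against WT proliferative from 3.35 to 4.89 and shortens its bar.

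Against WT resting, the same members were higher in WT hypertrophic. *Tyrobp* rose by a log2 fold change of 6.99 (SE 1.24, adjusted *P* = 0.031), a call that was lost with the replicate number as a block (adjusted *P* = 0.063) and with no filter (adjusted *P* = 0.11). *Cd68* rose by 2.65 (SE 0.87, unadjusted *P* = 0.021, adjusted *P* = 0.12). *Laptm5* had 1.85 (SE 0.87, adjusted *P* = 0.24) and its groups overlapped, since hypertrophic replicate 1 lay within the resting range. The unadjusted criteria thus called 2 members higher, where 5.84% of all genes were, and adjustment called 1 higher, where 3.21% were. Without hypertrophic replicate 1 all 3 rose after adjustment, where 11.7% of genes did, with 3.71 for *Cd68*, 2.90 for *Laptm5* and 8.47 for *Tyrobp*. Leaving out resting replicate 1 or 2, or hypertrophic replicate 2 or 3, brought the unadjusted number to 1, and leaving out any library other than hypertrophic replicate 1 brought the adjusted number to 0.

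Without the filter and without hypertrophic replicate 1, *Csf1r* rose by 6.36 on the log2 scale (SE 0.35, adjusted *P* = 0.0096) and *Mrc1* by 1.98 (SE 0.24, adjusted *P* = 0.031) over WT resting. Together with *Cd68*, *Laptm5* and *Tyrobp* this made 5 of 9 members past adjustment, where 5.26% of all rows with a value rose. *Cx3cr1* had -0.05 (SE 0.23, adjusted *P* = 0.97). The groups did not overlap for 4 of 9 members when all 3 hypertrophic libraries were kept, *Cd68*, *Csf1r*, *C1qb* and *Tyrobp*, each higher in WT hypertrophic, as was the case for 10.9% of rows.

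Between WT proliferative and WT resting, *Tyrobp* alone of the 3 filtered members rose by the unadjusted criteria, and none of the 3 passed adjustment. It rose by a log2 fold change of 3.15 (SE 0.77, unadjusted *P* = 0.0054, adjusted *P* = 0.14), whereas *Cd68* had 0.09 (SE 0.22, adjusted *P* = 0.86) and *Laptm5* had -0.00 (SE 0.25, adjusted *P* = 0.999). With the replicate number as a block, which pairs these libraries, *Tyrobp* kept the same fold change with an adjusted *P* of 0.069. The unadjusted criteria called 1 member higher, where 2.56% of genes were. Adjustment called 0 of the members and 0.622% of all genes with limma.

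Most of the other members had few reads in these groups. Over all 9 members the median log2 fold change in WT proliferative against WT resting was 0.74 without a filter, where it was 0.02 over all rows. The groups did not overlap for *Csf1r*, *Cx3cr1*, *C1qc* and *Tyrobp*, each higher in WT proliferative, as was the case for 8.7% of rows. None of these passed adjustment: *Csf1r* had 1.47 (SE 0.37, adjusted *P* = 0.28), *Cx3cr1* had 0.55 (SE 0.18, adjusted *P* = 0.35) and *C1qc* had 2.75 (SE 1.06, adjusted *P* = 0.41). Of the overlapping genes with few reads, *C1qb* had 2.06 (SE 1.01, adjusted *P* = 0.46) and *C1qa* had -0.68 (SE 0.62, adjusted *P* = 0.64). Background moved with this contrast. The 99th percentile of the genes that limb cells should not use was 0.981 to 1.85 NRPKM in WT resting and 2.76 to 4.97 NRPKM in WT proliferative, and its part in these differences was not tested.

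In the study the zeugopod chondrocytes of *aadd* were captured whole, whereas WT resting is a dissected compartment. Genotype and what was dissected therefore cannot be told apart in this comparison. In *aadd* against WT resting 1 member rose by the unadjusted criteria, with a fold limit of 1.5, where 3.78% of genes did. *Tyrobp* rose by a log2 fold change of 3.33 (SE 0.50, unadjusted *P* = 0.00029, adjusted *P* = 0.096), from an estimated 1.0 read or less in WT resting to 4.9 to 9.2 reads. *Cd68* had -0.00 (SE 0.25, adjusted *P* = 0.998) and *Laptm5* had -0.58 (SE 0.41, adjusted *P* = 0.72). Adjustment called 0 of the members and 0.119% of all genes with limma. Over all 9 members the median log2 fold change was 0.38, where it was 0.04 over all rows.

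The *aadd* libraries were uneven. Replicate 2 was the highest of the 3 for 7 of the 9 members, where that held for 37.2% of all rows with a value. It was the highest of all 12 libraries for *C1qb*, *C1qc*, *Cx3cr1* and *Mrc1*, where that held for 9.71% of rows. *Lyve1*, a hyaluronan receptor of resident macrophages and lymphatic vessels, was at 3.84 NRPKM there and at no more than 1.66 NRPKM elsewhere. *Cdh5*, the endothelial cadherin, was at 12.02 NRPKM there against 3.39 and 1.33 NRPKM in the other *aadd* libraries. The summed NRPKM of 35 other macrophage and myeloid genes was 112.3 in *aadd* replicate 2, but also 105.7 in WT proliferative replicate 3. That of 10 endothelial genes was 58.5 in *aadd* replicate 2 and 31.6 in WT resting replicate 3. The background genes had a 99th percentile of 3.78 NRPKM in *aadd* replicate 2 and 0.779 and 2.23 NRPKM in the other *aadd* libraries, and its part in these values was not tested. These comparisons of single libraries were chosen after the values had been seen.

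Across all 4 groups, limma's moderated F test gave adjusted *P* values of 0.049 for *Cd68*, 0.013 for *Tyrobp* and 0.13 for *Laptm5*, so 2 members passed, where 13.8% of genes did. Without hypertrophic replicate 1 all 3 passed, where 28.1% of genes did, and without hypertrophic replicate 3 the number was 0. Leaving out any other library in turn gave 1.

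The ligands and signalling partners of the member receptors divided in the same way. *Csf1*, the ligand of CSF1R, was at 2.69 to 9.01 NRPKM in the other 10 libraries and at 59.4 and 70.3 NRPKM in hypertrophic replicates 2 and 3, and it rose in WT hypertrophic over WT proliferative by the unadjusted criteria (log2 fold change 2.66, SE 0.99, unadjusted *P* = 0.035, adjusted *P* = 0.23). *Il34*, its other ligand, did not pass 1.93 NRPKM in any library, and *Cx3cl1*, the ligand of CX3CR1, did not pass 3.02 NRPKM. *Syk* and *Inpp5d*, a kinase and a phosphatase that act downstream of TYROBP, were at 7.17 to 8.62 NRPKM in hypertrophic replicates 2 and 3 and at no more than 1.12 NRPKM elsewhere. *Cbl*, a ubiquitin ligase that acts on CSF1R, was at 19.1 to 29.2 NRPKM in the other 10 libraries and at 35.2 and 34.0 NRPKM in those 2. *Grb2*, an adaptor of receptor tyrosine kinases, was at 6.35 to 13.1 NRPKM and at 20.5 and 18.4 NRPKM. In all, 6 of 14 genes were above the other 10 libraries in both, as were 16.4% of the genes that passed the filter and 11.6% of all rows with a value. Only *Csf1*, *Grb2* and *Cbl* passed the filter. Of these, 1 rose by the unadjusted criteria in WT hypertrophic over WT proliferative, where 5.32% of all genes did. After adjustment 0 passed, where 0% of all genes did. Without hypertrophic replicate 1, 2 of the 3 rose after adjustment, where 8.74% of genes did, and *Csf1* then had a log2 fold change of 3.81 (SE 0.41, adjusted *P* = 0.0085). *Il34*, *Cx3cl1*, *Syk* and *Inpp5d* were named after their values had been seen.

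Of 35 other macrophage and myeloid genes, 21 were above all other libraries in both hypertrophic replicates 2 and 3, against the same 16.4 and 11.6%. *Lcp1*, the actin bundling protein of leukocytes, was at 0.85 to 26.1 NRPKM in the other 10 libraries and at 103.2 and 87.2 NRPKM in those 2. Of the 8 that passed the filter, *Lcp1* alone changed after adjustment between 2 groups with all libraries kept, with a log2 fold change of 2.79 in WT proliferative over WT resting (SE 0.29, adjusted *P* = 0.023) and of 4.35 in WT hypertrophic over WT resting (SE 0.67, adjusted *P* = 0.020). Adjustment called 0.622% of all genes in the first of these comparisons and 3.21% higher in the second. In WT hypertrophic against WT proliferative 1 of the 8 rose by the unadjusted criteria, where 5.32% of all genes did. In *aadd* against WT resting 1 did, where 3.78% did. After adjustment 0 passed in either, where 0% and 0.119% of all genes did. Without hypertrophic replicate 1, 6 of the 8 rose after adjustment in WT hypertrophic over WT proliferative, where 8.74% of genes did.

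The myeloid genes that stayed low are those by which macrophages are usually told from osteoclasts. *Emr1*, which encodes the F4/80 antigen, was at 1.77 and 0.48 NRPKM in hypertrophic replicates 2 and 3 and at up to 2.04 NRPKM elsewhere. *Cd163*, the haemoglobin scavenger receptor, was at 3.65 and 2.52 NRPKM against 2.15 to 3.49 NRPKM. *Timd4* and *Fcgr1* did not pass 1.19 NRPKM in any library. By contrast *Spi1*, which encodes PU.1, was at 48.7 and 50.2 NRPKM in the 2 libraries and at no more than 7.55 NRPKM elsewhere, and *Fcer1g*, an adaptor related in function to TYROBP, was at 91.3 and 67.2 NRPKM and at no more than 13.1 NRPKM elsewhere. Of the 35 genes, 17 did not reach 5 NRPKM in any library. The genes of this paragraph were named after their values had been seen.

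Genes of other cell types moved with the members, and their part in the members' levels was not tested. The summed NRPKM of 16 osteoclast genes was 56.2 to 90.1 in the other 10 libraries and 1530.1 and 1153.2 in hypertrophic replicates 2 and 3, where 15 of the 16 were above all other libraries, against 16.4% of filtered genes and 11.6% of all rows. *Acp5*, the tartrate-resistant acid phosphatase, was at 1.11 to 2.92 NRPKM and then at 246.2 and 199.96 NRPKM, *Ctsk*, the collagen-degrading cathepsin K, was at 1.21 to 15.9 NRPKM and then at 300.1 and 111.0 NRPKM, and *Mmp9*, a gelatinase, was at 1.16 to 10.3 NRPKM and then at 422.2 and 377.9 NRPKM. *Tnfrsf11a*, which encodes the osteoclast receptor RANK, rose in WT hypertrophic over WT resting with all 3 libraries kept (log2 fold change 2.02, SE 0.25, adjusted *P* = 0.010) and without replicate 1 (2.25, SE 0.18, adjusted *P* = 0.0016). It was at 13.1, 21.0 and 20.6 NRPKM in WT hypertrophic and at 3.68 to 4.88 NRPKM in WT resting, so that hypertrophic replicate 1 was also above WT resting. Of the 7 osteoclast genes that passed the filter, 5 passed the unadjusted criteria and 0 passed adjustment between WT hypertrophic and WT proliferative, where 5.32% and 0% of all genes rose. Without hypertrophic replicate 1, 6 of the 7 rose after adjustment, where 8.74% of genes did.

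The summed NRPKM of 10 endothelial genes was 10.1 to 58.5 in the other 10 libraries, highest in *aadd* replicate 2, and 300.8 and 219.9 in hypertrophic replicates 2 and 3, where 10 of 10 were above all others, against the same 16.4 and 11.6%. *Cdh5* was at 96.5 and 72.5 NRPKM, *Eng*, a co-receptor for TGF-beta, at 36.4 and 27.7 NRPKM, and *Pecam1*, an adhesion molecule of vessels, at 46.2 and 35.01 NRPKM. Over 10 cartilage matrix genes the order was the reverse, with a summed NRPKM of 2393 to 4804 in the other 10 libraries and 683.0 and 1005.6 in the 2, and 9 of 10 were below all others. *Col2a1*, the main cartilage collagen, was at 720.3 to 1530.4 NRPKM and then at 245.1 and 343.1 NRPKM, *Col11a1*, a minor fibrillar collagen, at 146.1 and 227.9 NRPKM, and *Hapln1*, the link protein, at 66.6 and 81.5 NRPKM in the 2. In bulk tissue, fewer cells of a type and less RNA per cell cannot be told apart.

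Markers of maturing cartilage separated the hypertrophic libraries along the same line, but only in part. *Col10a1*, the collagen of hypertrophic chondrocytes, was at 263.8, 166.3 and 220.6 NRPKM in replicates 1, 2 and 3, and was thus present in all of them. *Mmp13*, a collagenase of the last hypertrophic stage, was at 3.05 NRPKM in replicate 1, within the range of the other groups, and at 734.6 and 661.2 NRPKM in replicates 2 and 3. *Spp1*, which encodes osteopontin, was at 24.1 NRPKM and then at 1083.3 and 979.0 NRPKM, and *Ibsp*, which encodes bone sialoprotein, was at 717.6, 968.5 and 1330.6 NRPKM.

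**Figure D4:**
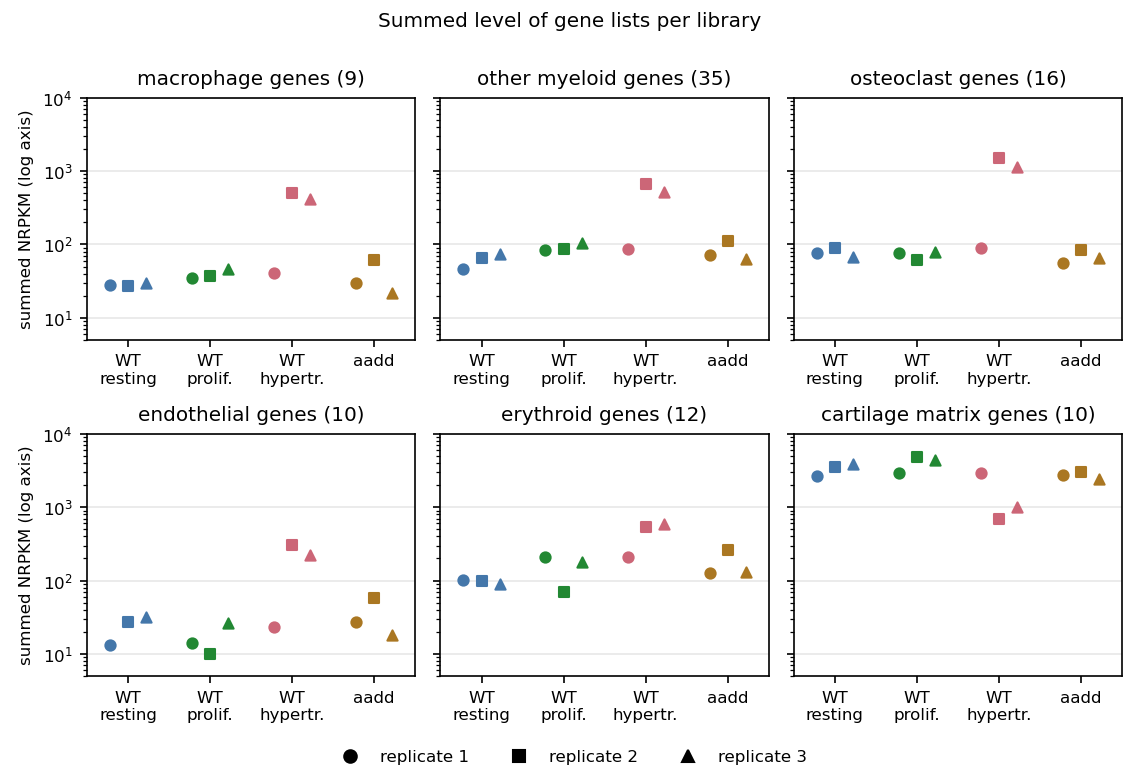
Summed NRPKM per library of the 9 macrophage genes and of 5 other gene lists, on a logarithmic axis shared by all panels, with a colour for each group and a symbol for each replicate. In hypertrophic replicates 2 and 3 the macrophage genes (495.7 and 422.3), the other myeloid, osteoclast, endothelial and erythroid genes are above the other 10 libraries, and the cartilage matrix genes are below them.

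Across the 12 libraries the members did not form a single pattern. On log2(NRPKM + 0.1), Pearson's *r* was 0.95 between *Cd68* and *Csf1r*, 0.91 between *Cd68* and *Laptm5* and 0.86 between *Csf1r* and *Tyrobp*. It was 0.79 between *C1qb* and *Mrc1*, but -0.14 between *Cd68* and *Cx3cr1*. These are descriptions over 12 points that share groups, and the 4 high genes are high in the same 2 libraries.

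Among the 10933 other genes that passed the filter, the 10 whose levels most resembled the mean log2 level of the members were *Gm14005* (*r* 0.97), *Tmbim6* (0.94), *Atp6v0b* (0.94), *Skap2* (0.94), *Fam198b* (0.92), *Rgl1* (0.91), *Rasgrp3* (0.91), *Lrp10* (0.91), *Fryl* (0.91) and *Cd93* (0.91). *Atp6v0b*, a subunit of the vacuolar proton pump, was at 30.5 to 43.8 NRPKM in the other 10 libraries and at 100.6 and 71.9 NRPKM in hypertrophic replicates 2 and 3. *Skap2*, an adaptor of leukocyte adhesion, was at 1.07 to 7.02 NRPKM and then at 35.9 and 24.9 NRPKM. *Cd93*, a receptor of endothelial and myeloid cells, was at 2.71 to 11.4 NRPKM, highest in *aadd* replicate 2, and then at 57.5 and 48.0 NRPKM. The ranking depended on the libraries used. Of the 10 genes, 3 stayed among the top 10 over the 9 WT libraries and 4 without hypertrophic replicates 2 and 3, where their median *r* was 0.73.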

How the data were processed

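RNA from 12 laser-captured samples, 20 ng each, was sequenced in the study. Reads of low quality, with several alignments or in duplicate were removed by the authors, who computed RPKM values in GeneSpring from alignments to mm10. TopHat is named in the submitters' processing notes. The deposited values are NRPKM, RPKM normalized between libraries by a method not given in the sources used here, on a linear scale with zeros kept. Use of strand is not given either.

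Values were analysed here as log2(NRPKM + 0.1) with limma 3.58.1 (R 4.3.3), with tables and plots in Python 3.11.15. The filter kept genes at 5 NRPKM or more in 3 or more of 12 libraries, 10936 in all, and 3 of the 9 members passed. The other 6 were taken from a fit without a filter (23070 rows). Each comparison used its 6 libraries with no covariate. Adjusted *P* values are Benjamini-Hochberg over all genes fitted, with a limit of 0.05. The value that 1624 single-exon genes take most often was read as 1 read, and 82.4 to 92.7% of their values were whole multiples of it within 0.02 reads. Reads per member were computed from it and the exon length in the GENCODE annotation. The procedure was tested on simulated data.

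Replicates carry the numbers 1 to 3. How far libraries with the same number lay from their group means correlated across genes at 0.281, 0.179 and 0.198 between WT resting and WT proliferative, over 0.1 in each, so the number was taken to pair those 2 groups, from the data and not the labels. In the other comparisons it did not exceed 0.1 in every pair.

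Named genes are the 9 members, the 10 most similar genes, and for each other list (ligands and partners, other myeloid, osteoclast, endothelial, erythroid, other leukocyte, perichondrial, skeletal muscle, cartilage matrix, and hypertrophic chondrocyte and osteoblast genes) the 3 of highest mean level and up to 5 that passed adjustment; others are marked as named after their values were seen. Some genes that this rule names are not reported here. The members and lists were chosen with earlier results of these data known. Alternatives were a pseudocount of 1, no filter, median-of-ratios and quantile rescaling, 12 libraries in one fit, the replicate block and leaving out each library; a filter in 2 libraries, and no filter together with leaving out hypertrophic replicate 1, were added after seeing the data.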

Additional observations from a re-analysis of the deposited data

How the results depend on the processing

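Of 182 alternative fits of single members, 158 stayed on the same side of the criteria, 15 lost the call and 9 gained it. Where the fit or its main version was called, 0 changed sign. Fits without a call could change sign and are among the 158. For *Cd68* in WT proliferative against WT resting the log2 fold change ran from -0.03 to 0.25. The number of members past the unadjusted criteria in *aadd* against WT resting was 1 under every alternative run, and that in WT proliferative against WT resting moved from 1 to 3 with no filter and to 2 with the filter in 2 libraries. With no filter, 4.07% of rows rose by these criteria in WT proliferative over WT resting, and 3.58% did in *aadd* over WT resting. Between WT hypertrophic and WT proliferative the unadjusted number moved from 2 to 1 with no filter, to 4 with no filter and without hypertrophic replicate 1, and from 0 to 3 when 1 library was left out. By these criteria 4.41% of rows rose with no filter, and 8.08% did without replicate 1 as well. The adjusted number moved from 0 to 3 both without hypertrophic replicate 1 and with no filter as well, and was 0 to 3 over the libraries left out. After adjustment 8.74% of genes rose without replicate 1, and 2.38% of rows did with no filter as well. Between WT hypertrophic and WT resting the unadjusted number moved from 2 to 4 with no filter or the filter in 2 libraries, to 5 with no filter and without hypertrophic replicate 1, and was 1 to 3 with 1 library left out. The adjusted number there moved from 1 to 0 with no filter, to 2 with all 12 libraries in one fit, to 5 with no filter and without hypertrophic replicate 1, and was 0 to 3 with 1 library left out. By the unadjusted criteria 5.95% of rows rose with no filter, and 9.0% did without replicate 1 as well. After adjustment 0.837% of rows rose with no filter, and 5.26% did without replicate 1 as well. With all 12 libraries in one fit, 6.73% of genes rose after adjustment. Over the 4 groups the number moved from 2 to 1 with no filter, median-of-ratios rescaling or the filter in 2 libraries, to 4 with no filter and without hypertrophic replicate 1, and was 0 to 3 with 1 library left out. Of all rows 3.93% passed there with no filter, and 11.2% did without replicate 1 as well. Shares with the filter in 2 libraries are not given here. *Csf1r* entered that filter only through hypertrophic replicates 2 and 3, the libraries in which it was high. Only 3 of the 10 most similar genes were kept over the 9 WT libraries, and 4 without hypertrophic replicates 2 and 3. The fits with no filter hold more genes, and the causes of the other moves were not tested.

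With the replicate number as a block, *Tyrobp* in WT hypertrophic against WT resting had an adjusted *P* of 0.063, so that 0 members passed, and *Cd68* over the 4 groups had 0.0504, so that 1 passed. The block changed no other count. The numbers pair only WT resting and WT proliferative; correlations of same-numbered deviations were -0.058, 0.054 and 0.124 between WT hypertrophic and WT proliferative, 0.066, 0.063 and 0.111 between WT hypertrophic and WT resting and 0.051, 0.280 and -0.097 between *aadd* and WT resting.

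At 1890000 to 3240000 reads, *C1qa*, *C1qb* and *C1qc* rested on at most 25.4 reads, and 3 libraries a group limit every test.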

Other observations

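Blood cell genes differed in where they were high. The summed NRPKM of 12 erythroid genes was 70.7 to 258.3 in the other 10 libraries, highest in *aadd* replicate 2, and 541.9 and 585.8 in hypertrophic replicates 2 and 3. *Hbb-bs* was at 11.6 to 113.8 NRPKM and then at 219.9 and 240.3 NRPKM, *Hba-a1* at 100.9 and 123.4 NRPKM and *Hba-x* at 90.0 and 102.1 NRPKM in those 2. Other leukocyte genes were scarce, with a sum of 13.9 to 40.6 NRPKM in the other 10 libraries and 55.1 and 34.0 NRPKM in the 2. *Cd3d* was at 9.31 to 26.7 NRPKM over the 12 libraries, and was lowest in those 2. *Kit*, the receptor of mast cells and progenitors, was at 8.54 and 10.9 NRPKM there and at no more than 2.24 NRPKM elsewhere, while *S100a9*, a neutrophil gene, was at 16.1 NRPKM in replicate 2 and 2.05 NRPKM in replicate 3. The mast cell gene *Cpa3*, named after its values were seen, was highest in *aadd* replicate 2, at 6.70 NRPKM, the library in which *C1qb* and *Mrc1* were also highest.

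The summed NRPKM of 10 perichondrial and fibroblast genes was 479.5 to 1374.7 in the other 10 libraries and 1522 and 2308 in hypertrophic replicates 2 and 3. Of the 10 genes, 4 were above all others in both, against 16.4% of filtered genes and 11.6% of all rows. In those 2, *Col1a1* was at 722.7 and 1187.2 NRPKM, *Col1a2* at 326.8 and 546.3 NRPKM and *Lum* at 115.4 and 199.2 NRPKM. Without hypertrophic replicate 1, limma gave log2 fold changes over WT resting of 2.04, 1.88 and 0.27 (adjusted *P* = 0.026, 0.020 and 0.53). Over WT proliferative *Lum* had -0.59 (adjusted *P* = 0.30). *Twist1* rose in WT hypertrophic over WT resting (log2 fold change 2.40, SE 0.40, adjusted *P* = 0.026), also without hypertrophic replicate 1 (2.75, SE 0.34, adjusted *P* = 0.0052). Skeletal muscle genes did not follow the members: their sum was highest in WT proliferative replicate 3, at 129.8 NRPKM, and was 26.2 and 41.5 NRPKM in hypertrophic replicates 2 and 3, with *Actc1* at 10.6 and 18.1 NRPKM, *Mylpf* at 6.5 and 11.6 NRPKM and *Acta1* at 3.9 and 1.4 NRPKM.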
